A study of Mus musculus with 26 samples.

Results

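The genes described are 10 that encode plasma membrane transporters for glucose (*Slc2a1*, *Slc2a3*), amino acids (*Slc7a5*, *Slc3a2*, *Slc1a5*, *Slc7a1*, *Slc38a1*, *Slc38a2*) and lactate (*Slc16a1*, *Slc16a3*). They were taken by name and are 10 of the 35944 genes with counted transcripts. All 10 passed the filter on low counts, as did 15465 genes in all. The cells are TCRTg101, CD8+ T cells that carry 1 transgenic receptor for a naturally expressed, undefined antigen of the mouse leukemia line C1498, so every library describes a single T cell clone. Per the study's methods, the transgenic mice carried a Rag2-/- background, and naive TCRTg101 were transferred into mice that were given C1498 cells by vein on the next day.

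RNA of sorted TCRTg101 was measured in 15 libraries from 26 sequencing runs, and the labels give C57BL/6 mice, 6 weeks of age and a wild type genotype for all of them. The control group comprised 3 spleen libraries without leukemia, of which 2 were naive cells at day 0 and 1 came from an untreated mouse at day 18. Leukemia-bearing mice gave 2 early liver libraries (day 7), 3 mid liver libraries (days 13, 13 and 14), 2 late liver libraries (days 18 and 16), 2 early spleen libraries (day 7), 1 mid spleen library (day 14) and 1 library of undivided spleen cells (CTVhi, still bright for the division dye CellTrace Violet, day 18). The remaining library was a day 0 sample made with oligo-dT priming and was kept out of the tests. Because every control came from spleen, leukemia and tissue cannot be told apart in the comparisons of liver with control. The library names fall into the series TG (control 1, mid liver 1 and late liver 1) and XC (the other 11 low-input libraries), and the series was a term in the model. No source used here says whether a library held cells of 1 mouse or of several, so p-values measure the spread between these libraries. Mid spleen and undivided cells have 1 library each and show no spread of their own. Their standard errors and p-values assume that they vary like the other groups.

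Levels are given as CPM (counts scaled to a common library size with TMM factors) unless TPM, which is also corrected for transcript length, is named. The 14 low-input libraries held 22918996 to 71358287 estimated counts each. CD8 T cell markers summed to 2940 to 7820 CPM in every library, and none of the 7 was at 0 in any group. The groups differed in other markers. Hepatocyte markers (6 genes) summed to 0.21 to 0.325 CPM in controls, 2.07 to 7.46 in early, 3.18 to 183 in mid and 67.4 to 305 in late liver. Myeloid markers (6 genes) summed to 464 and 102 CPM in the day 0 controls and to 4.9 to 50.0 in the other low-input libraries. Hemoglobin genes (4 genes) summed to 5180 and 20100 CPM in control 1 and control 2 and to at most 214 in the other low-input libraries. B cell, liver endothelium and blast markers stayed at or below 44.2, 16.4 and 16.9 CPM. Of the hepatocyte markers, 1 of 6 was at 0 in every control, and none was at 0 throughout the liver groups. Markers of division (*Mki67*, *Top2a* and *Cdk1*) summed to 7.24 to 31.8 CPM in controls, 314 to 761 in mid liver and 628 to 684 in late liver.

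A resting CD8+ T cell takes up little nutrient. After antigen it grows and divides, places GLUT1 and large neutral amino acid, glutamine and arginine transporters in its membrane, and exports the lactate that glycolysis makes through proton-coupled monocarboxylate carriers. The amino acid transporter LAT1 (*Slc7a5*) works only as a dimer with the heavy chain CD98 (*Slc3a2*), and the lactate carriers need a chaperone such as basigin (*Bsg*) to reach the surface.

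In mid liver, 8 of the 10 genes were higher than in control at an adjusted p under 0.05, where 29.3% of all genes tested were called (17.5% higher and 11.8% lower). In late liver, 6 were higher and 1, *Slc38a2*, was lower, against 34.2% of all genes (19.9% higher and 14.3% lower). The largest change was that of the lactate exporter gene *Slc16a3*, which stood near 2 CPM in controls and between 48.7 and 92.6 CPM in all 5 mid and late liver libraries. Over the 10 genes the median log2 fold change was 1.01 in mid and 0.88 in late liver, against -0.07 and -0.04 over all genes tested. In early liver, early spleen, mid spleen and undivided cells none of the 10 passed the test. Bulk RNA cannot tell more transcript per cell from a changed mix of cells.

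**Figure D1:**
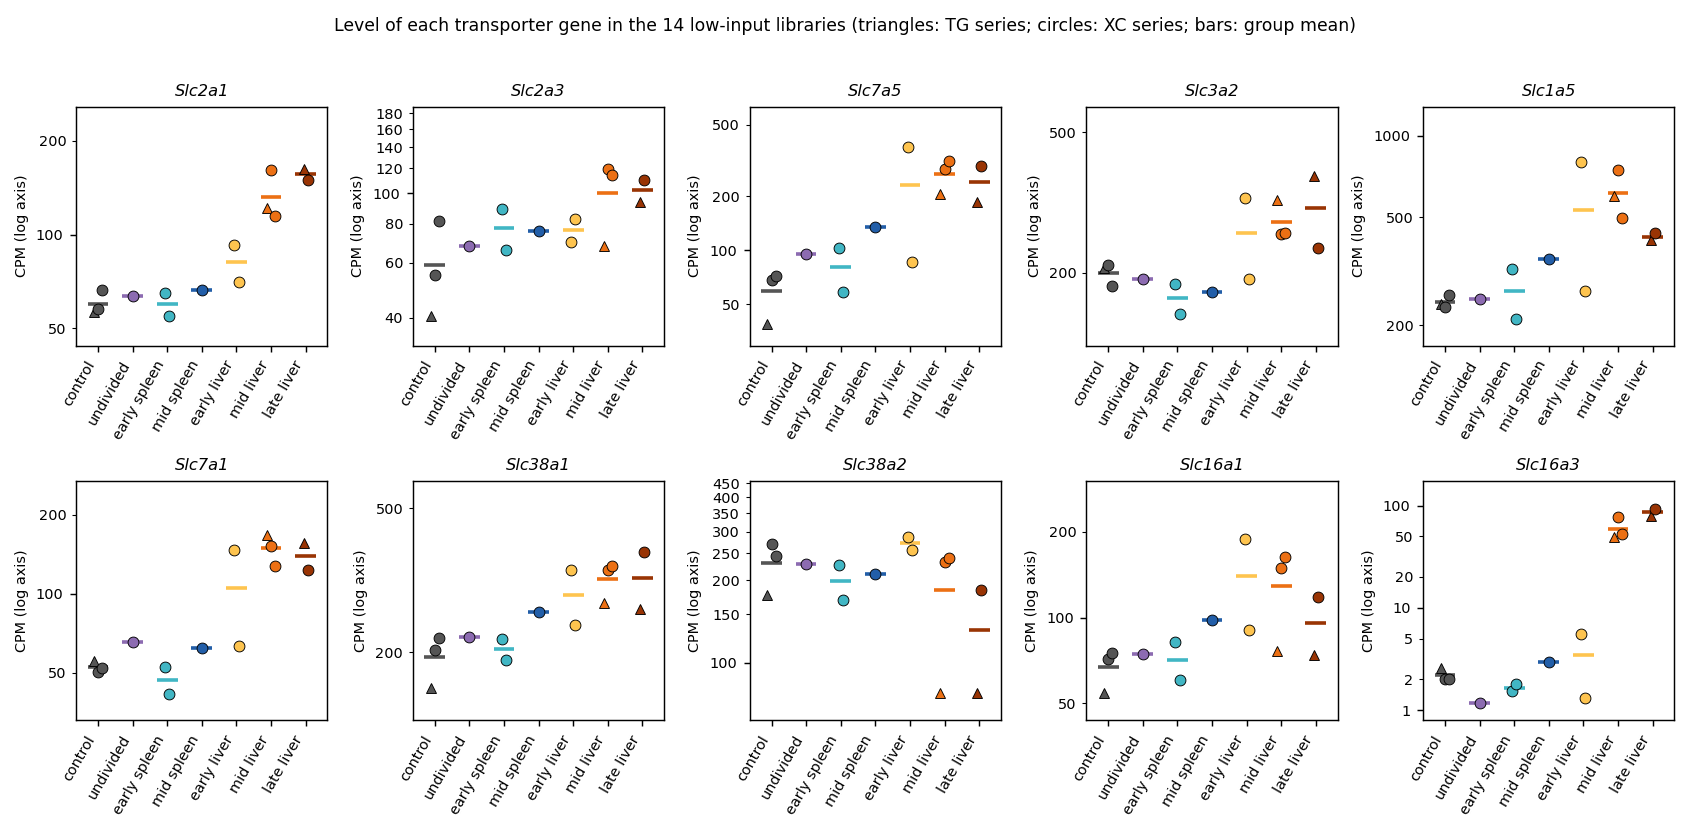
CPM (log axis, own scale in each panel) of the 10 transporter genes in the 14 low-input libraries, by group, with triangles for the TG series, circles for the XC series and bars for group means. *Slc16a3* lies at 1.16 to 5.55 CPM in the 9 libraries outside mid and late liver and at 48.7 to 92.6 CPM within them.

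The glucose transporter genes both rose in mid and late liver. *Slc2a1* encodes GLUT1, the main glucose carrier of dividing T cells. It stood at 56.2, 57.6 and 66.2 CPM in the 3 controls, at 122, 161 and 114 CPM in mid liver and at 163 and 149.5 CPM in late liver. No mid or late library overlapped the controls. The fold change was 2.21 in mid liver (log2 1.14 ± 0.19, standard error, adjusted p = 0.0116) and 2.63 in late liver (log2 1.40 ± 0.21, adjusted p = 0.00436). *Slc2a3* (chromosome 6, 122727809 to 122801640) encodes GLUT3, a carrier of higher affinity for glucose. It ran from 40.5 to 81.5 CPM in controls, from 67.7 to 119 CPM in mid liver and from 93.5 to 110.5 CPM in late liver. Its mid range overlapped that of the controls, while within each series the mid libraries lay above the control libraries. Its fold change was 1.70 in mid liver (log2 0.77 ± 0.21, adjusted p = 0.0224) and 1.93 in late liver (log2 0.95 ± 0.23, adjusted p = 0.0137).

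*Slc2a1* lies on chromosome 4 at 119108711 to 119137983 (GRCm38, plus strand). Of its annotated transcripts, the protein coding *Slc2a1-201* held 26.8% to 28.3% of the gene's TPM in controls and 27.0% to 33.3% in mid and late liver, and these ranges overlapped. A larger share went to *Slc2a1-204*, annotated for nonsense-mediated decay, with 46.7% to 55.7% in controls and 46.4% to 62.6% in mid and late liver. The gene count sums both, and kallisto's division of reads between them carries an error that is not measured here. Promoter windows (250 bases before to 50 after a RefSeq start, GRCm38.p6) were at hand for 6 of the 10 genes, namely *Slc2a1*, *Slc3a2*, *Slc7a1*, *Slc38a2*, *Slc16a1* and *Slc16a3*. The stretch of *Slc2a1* at chr4:119108665-119108714, shown because it holds both searched hypoxia response cores, is given 5′ to 3′ with the matches in capitals (ACGTG, and CACGC, which is GCGTG on the other strand). Its last 4 bases lie in the first exon of *Slc2a1-201*.
Slc2a1: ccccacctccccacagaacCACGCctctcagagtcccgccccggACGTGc
Of all 32851 promoter windows, 16.6% hold ACGTG and 28.2% hold GCGTG in the bases before the start, on either strand, so these matches are common and describe the sequence only.

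Of the 6 amino acid transporter genes, 4 rose in mid liver and 3 in late liver. *Slc7a5* (chromosome 8, 121881150 to 121907694) encodes LAT1, the light chain of the dimer, which brings in leucine and other large neutral amino acids. It stood at 38.7, 68.3 and 71.7 CPM in controls. It reached 205, 284 and 312 CPM in mid liver and 185 and 293 CPM in late liver, with no overlap. The fold change was 4.58 in mid liver (log2 2.19 ± 0.46, adjusted p = 0.0147) and 4.38 in late liver (log2 2.13 ± 0.49, adjusted p = 0.0132). Its partner *Slc3a2* (CD98 heavy chain, chromosome 19, 8706882 to 8723369) stood at 206, 211 and 183.5 CPM in controls, 322, 258 and 259 CPM in mid liver and 377 and 235 CPM in late liver. All mid and late libraries of *Slc3a2* lay above the controls, but the fold changes of 1.38 and 1.44 missed the threshold (log2 0.47 ± 0.22, adjusted p = 0.128, and 0.52 ± 0.25, adjusted p = 0.122). Per length, *Slc7a5* was at 0.106 to 0.194 of the TPM of *Slc3a2* in controls and at 0.224 to 0.587 in mid and late liver. The ratio was 0.563 and 0.23 in early liver, 0.256 and 0.19 in early spleen, 0.373 in mid spleen and 0.247 in undivided cells. All of these but that of early spleen 2 lay within the range of mid and late liver. The low end of that range came from the TG libraries, at 0.286 and 0.224 with a control of 0.106. The early, spleen and undivided libraries are all of the XC series. In that series controls were at 0.164 and 0.194, mid liver at 0.533 and 0.586 and late liver at 0.587. Of the early, spleen and undivided libraries, early liver 1 alone lay within the XC range of mid and late liver. The light chain transcript stayed below that of the heavy chain in every library.

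*Slc1a5* (chromosome 7, 16781340 to 16798274) encodes ASCT2, the sodium-dependent glutamine transporter, and had the highest mean TPM of the 10 genes in mid and late liver. It stood at 240.2, 234.5 and 259 CPM in controls, 601, 748 and 495 CPM in mid liver and 411 and 439 CPM in late liver. Mid liver was 2.51-fold above control (log2 1.33 ± 0.36, adjusted p = 0.0227). Late liver was 1.75-fold above and missed the threshold (log2 0.81 ± 0.39, adjusted p = 0.127), although neither late library overlapped the controls. The difference between late and mid liver was -0.52 ± 0.40 on the log2 scale (adjusted p = 0.981). The shares of its transcripts differed too, which was not tested. The protein coding *Slc1a5-201* held 8.96%, 3.51% and 9.64% of the gene's TPM in controls and 35.2% and 35.8% in late liver, while the retained intron transcript *Slc1a5-202* went from 61.2% to 68.1% in controls to 41.6% and 38.4%. Because the gene count sums both, *Slc1a5-201* taken alone was at 3.89 to 12.4 TPM in controls and 34.1 to 67.3 TPM in mid and late liver. These shares come from kallisto's division of reads among overlapping transcripts and carry an error that is not measured here.

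*Slc7a1* (chromosome 5, 148327410 to 148399904) encodes CAT1, the carrier of arginine and lysine, and its controls lay close together at 55.6, 50.3 and 52.2 CPM. Mid liver libraries stood at 167, 152.5 and 127.5 CPM and late liver libraries at 156 and 124 CPM. The fold changes were 2.82 (log2 1.496 ± 0.270, adjusted p = 0.0128) and 2.57 (log2 1.36 ± 0.30, adjusted p = 0.00962). *Slc38a1* (SNAT1, a sodium-coupled carrier of glutamine and other neutral amino acids) ran from 159 to 219 CPM in controls, 272.5 to 346 CPM in mid liver and 263 to 379 CPM in late liver. Its fold changes were smaller, at 1.65 (log2 0.72 ± 0.18, adjusted p = 0.0173) and 1.73 (log2 0.79 ± 0.19, adjusted p = 0.0143). Of the 31-base words in its transcripts, 6.94% also occur in other genes, the highest share among the 10 genes, so a small part of its counts may belong elsewhere.

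*Slc38a2* (SNAT2), a relative of SNAT1 whose transcript is known to be induced by amino acid shortage, went the other way. Controls stood at 177, 272 and 246 CPM, mid liver at 77.6, 232.5 and 241.5 CPM and late liver at 77.8 and 185 CPM. The low values in mid and late liver were those of the TG series, whose control was itself the lowest control. The log2 fold change was -0.49 ± 0.23 in mid liver (adjusted p = 0.129) and -0.77 ± 0.26 in late liver (adjusted p = 0.0437). Within the TG series the log2 ratio of late liver to control was -1.19, and within the XC series it was -0.49. The late call was lost when control 1, control 2, late liver 1 or late liver 2 was left out (adjusted p from 0.0658 to 0.29). *Slc38a1* and *Slc38a2* are neighbours on chromosome 15 (96571418 to 96642913 and 96687392 to 96699730, both on the minus strand). Their ratio on the TPM scale was 0.973 to 1.17 in controls and 1.91 to 5.21 in mid and late liver, without overlap.

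Both lactate carriers rose in mid liver, by very different amounts. *Slc16a3* encodes MCT4, the low affinity carrier that exports lactate from highly glycolytic cells. It had 174, 104 and 62 estimated counts in the controls, which is 2.61, 2.03 and 2.01 CPM. Mid liver libraries stood at 48.7, 77.1 and 52.9 CPM, from 2807, 2126 and 1448 counts, and late liver libraries at 78.6 and 92.6 CPM. The rise was 26.5-fold in mid liver (log2 4.73 ± 0.48, adjusted p = 0.00937) and 38.6-fold in late liver (log2 5.27 ± 0.51, adjusted p = 0.00293). The hepatocyte marker sums were 183, 19.8 and 3.18 CPM in mid liver 1, 2 and 3 and 305 and 67.4 CPM in late liver 1 and 2, and their part in the rise was not tested. *Slc16a1* (chromosome 3, 104638668 to 104658462) encodes MCT1, which carries lactate and pyruvate in either direction. It ran from 54.6 to 75.3 CPM in controls, 76.4 to 163 CPM in mid liver and 73.7 to 118 CPM in late liver. Mid liver was 1.85-fold above control (log2 0.89 ± 0.26, adjusted p = 0.0304), and late liver was 1.52-fold above and missed the threshold (log2 0.60 ± 0.29, adjusted p = 0.124). On the TPM scale *Slc16a3* was at 0.0611 to 0.126 of *Slc16a1* in controls and at 0.877 to 2.66 in mid and late liver, so the order of the carriers turned in 4 of these 5 libraries.

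*Slc16a3* lies on chromosome 11 at 120948480 to 120960868 (GRCm38, plus strand), and its annotated transcripts begin with different first exons. *Slc16a3-201* starts 587 bases before the RefSeq start. It had 53, 43 and 9 estimated counts in the controls, or 22%, 32.2% and 13.3% of the gene's TPM, and 1070 to 2700 counts, or 58.1% to 65.2%, in mid and late liver. In mid spleen 57.1% was reached with only 69 counts. The control shares rest on few counts, and reads in exons shared by the transcripts are divided by kallisto. The stretches below are shown because *Slc16a3* and *Slc16a1* serve the same substrate and differ in the size of their change. They describe the sequence only, and their part in the change was not tested. The stretch of *Slc16a3* (chr11:120949009-120949058, plus strand) holds ACGTG at 27 and at 14 bases before the RefSeq start, and its last 6 bases lie in the first exon of *Slc16a3-207*. It lies after the start of *Slc16a3-201*, so it does not show the bases before that transcript. That of *Slc16a1* (chr3:104638444-104638493, plus strand) holds CACGTG, the letters bound by MYC and MAX, 200 bases before the start. Matches are in capitals, 5′ to 3′.
Slc16a3: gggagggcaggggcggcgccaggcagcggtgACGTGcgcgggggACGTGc
Slc16a1: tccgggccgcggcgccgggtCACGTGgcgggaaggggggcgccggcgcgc
CACGTG, which contains ACGTG on both strands, is held by 6.02% of all windows, and among the members' windows by that of *Slc16a1* alone, which also holds GCGTG at 2 other places. The window of *Slc3a2* holds 1 ACGTG, those of *Slc7a1* and *Slc38a2* hold none of the letters searched, and TGATGNAA (the core of the element bound by ATF4, in 3.45% of all windows) is in none of the 7 windows of the 6 genes.

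**Figure D2:**
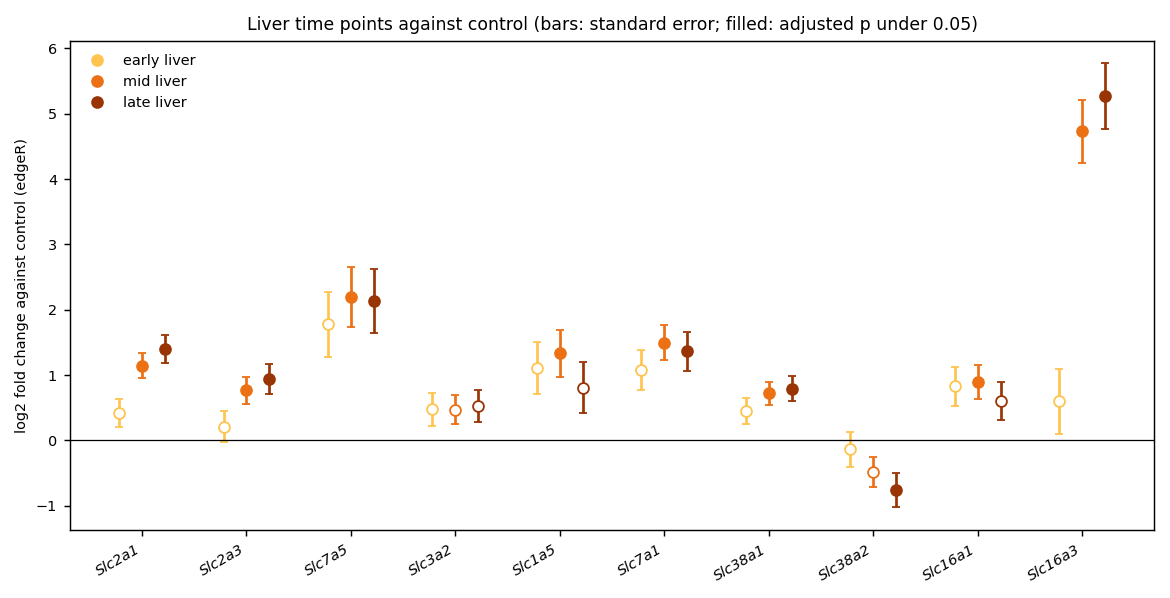
Log2 fold change against control (edgeR) in early, mid and late liver for the 10 genes, with standard errors as bars and filled points at an adjusted p under 0.05. *Slc16a3* stands apart at 4.73 and 5.27 in mid and late liver, *Slc38a2* lies below 0 at all 3 time points in this fit, although its early liver value turns to 0.23 without the series term, and no early liver point is filled.

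Libraries of mid liver lay wholly above the controls for 8 of the 10 genes, where 21.0% of all genes tested did so (21.2% lay wholly below). In late liver this held for 8 genes as well, against 27.9% (28.1% below). With TMM factors, the ratio to control had the same sign in the TG and XC series for 10 of 10 genes at both time points. In late liver this depended on the scale for *Slc16a1* and *Slc3a2*. Without TMM factors *Slc16a1* in the TG series was at 53.3 CPM against 56.0 CPM in control. In the XC series *Slc3a2* was at 136.9 TPM against 139.5 and 137.1 TPM in the controls. The share of all genes with the same sign in both series was not counted. The calls, however, depended on single libraries. In mid liver 0 genes of the 10 passed without control 1, without control 2 or without mid liver 1, 1 without mid liver 3 and 5 without mid liver 2. Of all 15465 genes tested, 5 were called without control 1, 0 without control 2 and 3 without mid liver 1. Without mid liver 3 it was 33 and without mid liver 2 it was 3623, so calls were lost over all genes too. The log2 fold change of *Slc16a3* stayed between 4.51 and 4.98 in these fits, and its adjusted p reached 0.0675. In late liver 0 passed without late liver 2, and 2 without control 1 or without late liver 1. The XC libraries alone gave 0 in mid liver, where 0 of all genes tested were called. They hold 1 late liver library, whose log2 ratio to the XC controls was 5.52 for *Slc16a3*.

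Early liver was set against control to see which genes had moved by day 7, and against early spleen to compare organs on that day. The log2 fold change against control was positive for 9 of the 10 genes, with a median of 0.54 against -0.01 over all genes tested, and 5 had an unadjusted p under 0.05. None passed the adjustment, as for all genes tested (0%, smallest adjusted p 0.404 by edgeR, with 1675 genes at an unadjusted p under 0.05 and 409 called by DESeq2). The 2 early libraries lay far apart. *Slc7a5* stood at 376 CPM in early liver 1 and 85.8 CPM in early liver 2, *Slc1a5* at 798 and 268.5 CPM, and *Slc7a1* at 147 and 63.3 CPM. Early liver 1 lay above the highest control for 9 of 10 genes, where 30.8% of all genes tested did so, and was the highest of all 14 libraries for *Slc7a5*, *Slc1a5*, *Slc16a1* and *Slc38a2*. *Slc16a3* was an exception, with 5.55 CPM in early liver 1, far below every mid liver library, and 1.32 CPM in early liver 2. Early liver 2 also lay above the highest control for 7 of 10 genes, though by smaller margins, where 23.8% of all genes tested did so. The sum of the division markers was 195 CPM in early liver 1 and 5.77 CPM in early liver 2, and its part in the difference was not tested. Leaving out either early library leaves 1 in that group. Without early liver 2 the log2 fold change of *Slc7a5* against control was 2.48, and without early liver 1 it was 0.35. For *Slc2a3* the order was the other way, at 0.08 and 0.32.

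**Figure D3:**
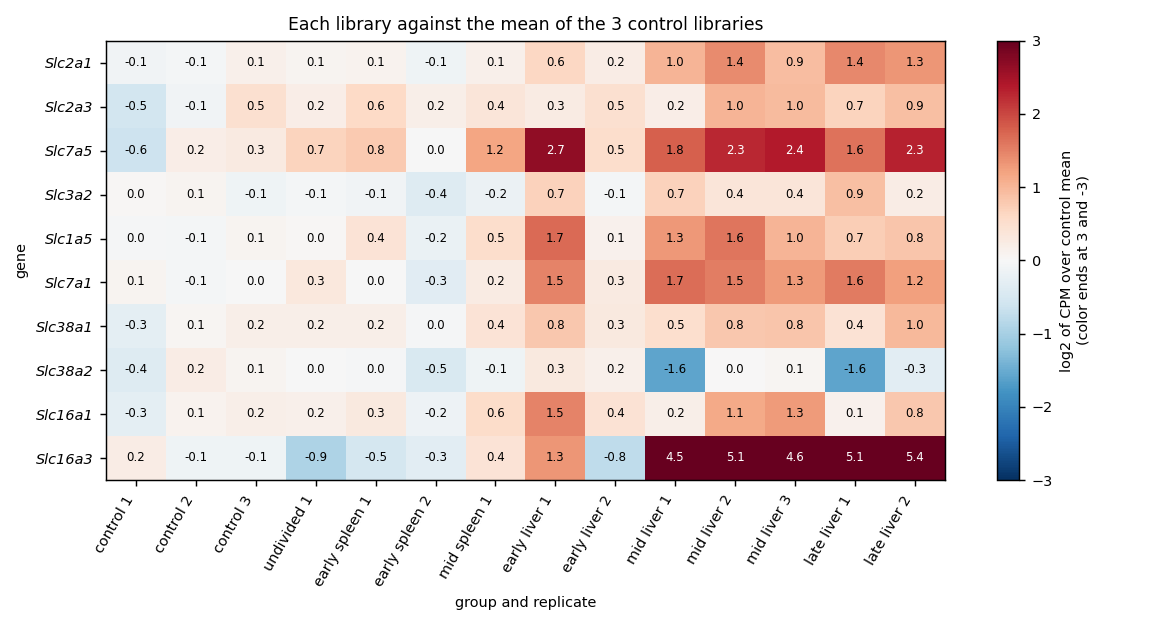
Log2 of the CPM in each of the 14 low-input libraries over the mean of the 3 controls, 1 row per gene, with the value in each cell and a color scale that ends at 3 and -3. Early liver 1 reaches 2.66 for *Slc7a5* and 1.32 for *Slc16a3*, and early liver 2 stays between -0.75 and 0.53.

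Against early spleen, early liver was higher for 9 of 10 genes, with a median log2 fold change of 0.79 against -0.01 over all genes tested. The largest was that of *Slc7a5* (1.52 ± 0.55), whose libraries overlapped, followed by *Slc7a1* (1.16 ± 0.33). None passed the adjustment (smallest adjusted p 0.544), nor did any of all genes tested (0%, with 1395 at an unadjusted p under 0.05 and 61 called by DESeq2). *Slc16a3* was near the bottom of the count range here, with 223 and 42 in early liver and 55 and 49 in early spleen.

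The spleen libraries of leukemia-bearing mice differed among themselves, and no transporter passed the test in either spleen group. Early spleen 1 lay above the highest control for 4 genes and below the lowest for 1, where 22.1% of all genes tested lay above and 21.9% below. Early spleen 2 lay above for 0 and below for 6, where 28.7% of all genes tested lay above and 27.9% below. This library had the highest TMM factor (1.22), and the count depended on it. Without TMM factors *Slc3a2* (185.8 against 201.5 CPM) and *Slc7a1* (50.4 against 52.0 CPM) still lay below the lowest control. *Slc2a1*, *Slc1a5*, *Slc38a2* and *Slc16a3* then lay within the range of the controls. In early spleen the log2 fold changes ran from -0.59 ± 0.27 for *Slc38a2* to 0.26 ± 0.50 for *Slc7a5*, and none passed (smallest adjusted p 0.804). Of all genes tested 0% were called, with 972 at an unadjusted p under 0.05 and 14 called by DESeq2. The single mid spleen library lay above the highest control for 7 of the 10 genes and below the lowest for 1, where 28.7% of all genes tested lay above and 22.6% below. *Slc7a5* stood at 135 CPM (log2 1.003 ± 0.604), *Slc1a5* at 351 CPM, *Slc38a1* at 259 CPM, *Slc16a1* at 98.5 CPM, *Slc2a1* at 66.5 CPM and *Slc7a1* at 62.1 CPM. *Slc16a3* was at 2.93 CPM from 108 counts, 0.36 ± 0.62 above control on the log2 scale, and *Slc3a2*, at 177 CPM, was the gene below. The sum of the division markers in this library was 171 CPM, against 7.24 to 31.8 CPM in controls, and its part in these values was not tested. None of the 10 passed (smallest adjusted p 0.841), where 0.00647% of all genes tested did so, which is 1 gene. At that stage *Slc16a3* stood at 48.7 to 77.1 CPM in liver, and the difference between the organs was not tested.

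Undivided cells, taken at day 18 from spleens of leukemia-bearing mice, were set against control to compare cells that had met the same host without dividing. *Slc2a1* stood at 63.5 CPM, *Slc1a5* at 251 CPM and *Slc38a2* at 229.5 CPM, all within the range of the controls. *Slc7a5* (95.1 CPM), *Slc7a1* (65.4 CPM) and *Slc38a1* (219.8 against 219.0 CPM) lay above the highest control, and *Slc16a3* (1.16 CPM, 35 counts) lay below the lowest. Of all genes tested, 21.4% lay above and 18.7% below in this library, so 3 genes of 10 above and 1 below are near that background. The log2 fold changes were 0.50 ± 0.62 for *Slc7a5* and -0.97 ± 0.69 for *Slc16a3*, and no gene of the 10 or of all tested passed (0%, with 174 at an unadjusted p under 0.05 and 0 called by DESeq2).

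Late and mid liver were compared to see whether levels moved further between days 13 to 14 and days 16 to 18. *Slc16a3* was higher in both late libraries than in any mid library (log2 0.54 ± 0.46) and *Slc1a5* lower (-0.52 ± 0.40). The other 8 genes overlapped. Of all genes tested, 8.02% lay wholly higher and 6.94% wholly lower in late than in mid liver, so 1 gene of 10 in each direction is near that background. None of the 10 passed (smallest adjusted p 0.981). Of all genes tested 0% were called, with 767 at an unadjusted p under 0.05 and 53 called by DESeq2.

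On the TPM scale, which allows genes to be ranked, *Slc3a2* and *Slc1a5* led in controls with means of 128 ± 18.0 and 110 ± 18.7 TPM (SD, n = 3), and their ranges overlapped. *Slc38a1* (50.3 ± 13.9), *Slc38a2* (46.2 ± 13.9), *Slc2a1* (27.3 ± 7.04), *Slc7a1* (22.5 ± 2.26), *Slc7a5* (20.2 ± 7.92), *Slc2a3* (17.8 ± 9.68) and *Slc16a1* (14.1 ± 3.82) followed, each overlapping the next, and *Slc16a3* was last at 1.17 ± 0.0926, without overlap. In late liver *Slc1a5* and *Slc3a2* stood at means of 142.5 and 132 TPM, and their ranges overlapped. *Slc16a3* had moved to the seventh place (23.5 and 47.8 TPM), above *Slc2a3* (22.5 TPM), *Slc38a2* (21.5 TPM) and *Slc16a1* (15.8 TPM), although the ranges of these neighbours overlapped. TPM was lower in the TG than in the XC libraries of control, mid and late liver for every member but *Slc16a3* in control, and on this scale *Slc16a1* in the TG series was at 8.86 TPM in late liver and 10.0 TPM in control.

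**Figure D4:**
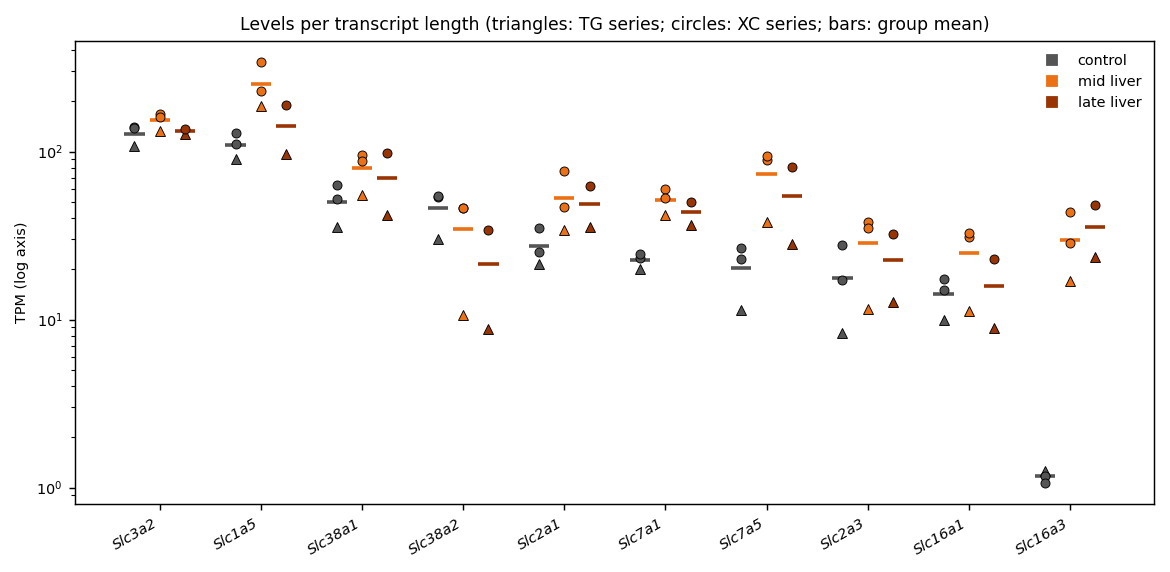
TPM (log axis) of the 10 genes in control, mid liver and late liver, ordered by the control mean, with triangles for the TG series, circles for the XC series and bars for group means. *Slc16a3* moves from a control mean of 1.17 TPM into the range of the other members (29.8 and 35.7 TPM).

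Across the 14 low-input libraries, Pearson's r of log2 CPM was positive for all 36 pairs among the 9 genes other than *Slc38a2* (0.257 to 0.968, median 0.772). It was highest for *Slc7a5* with *Slc38a1* (0.968) and *Slc2a1* with *Slc16a3* (0.956). *Slc38a2* had r from -0.512 to 0.381 with the others. The libraries share groups and series, so these values describe the pattern and carry no test. The genes most like *Slc2a1* among all tested were *Pfkl* (r = 0.979), *Eno1* (0.974) and *Srfbp1* (0.973), those most like *Slc16a3* were *Tpi1* (0.976), *Klc3* (0.974) and *Lpgat1* (0.972), and those most like *Slc7a5* were *Kpna3* (0.982), *Sept11* (0.976) and *Pfas* (0.976). *Pfkl*, *Eno1* and *Tpi1* encode glycolytic enzymes.

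Other transporters of the same substrates moved in both directions. Their counts below are for late liver, where 19.9% of all genes tested were called higher and 14.3% lower. Of 11 further glucose transporter genes, 5 passed the filter on low counts, and 2 rose in late liver. *Slc2a6* (GLUT6) went from 2.82, 0.762 and 0.39 CPM in controls to 32.2 and 21.5 CPM in late liver (log2 4.46 ± 0.86, adjusted p = 0.00765). *Slc2a2* (GLUT2, the glucose carrier of hepatocytes) stayed at or below 1.07 CPM in all libraries and rose in late liver (log2 2.79 ± 0.74, adjusted p = 0.0183), where the hepatocyte markers were highest. The part of hepatocyte RNA in this value was not tested.

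Of 29 further amino acid transporter genes, 21 were tested, and in late liver 4 rose, 5 fell and 12 did not pass (median log2 fold change 0.05). The shares over all genes tested were 19.9% higher and 14.3% lower. *Slc7a3* (CAT3, a relative of CAT1) rose from 0.547 to 1.11 CPM in controls to 15.1 and 7.2 CPM (log2 3.58 ± 0.98, adjusted p = 0.0241), and early liver 1 held 24.3 CPM. *Slc1a4* (ASCT1, which carries serine and alanine) rose from 0.599 to 3.9 CPM to 12.9 and 15.2 CPM (log2 3.40 ± 0.92, adjusted p = 0.0229). *Slc1a3*, a glutamate transporter, fell from 1.11 to 7.71 CPM to 0.131 and 0.142 CPM, which is 6 and 5 counts (log2 -4.39 ± 1.10, adjusted p = 0.0153), and its highest control was control 1, which also had the highest myeloid marker sum (464 CPM). The part of those cells in this value was not tested.

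Of 15 further monocarboxylate carriers and chaperones, 11 were tested, and in late liver 4 rose, 2 fell and 5 did not pass. Over all genes tested the shares were again 19.9% higher and 14.3% lower. *Slc16a5* (MCT6) stood at 59.3, 83.1 and 57.5 CPM in controls and fell to 1.92 and 0.0851 CPM, from 88 and 3 counts (log2 -6.25 ± 1.22, adjusted p = 0.00976). It was already low in mid liver (4.27 to 7.58 CPM) and stood at 9.9 and 46.4 CPM in early liver 1 and 2. *Slc16a11* rose from 0.24 to 0.844 CPM to 12.0 and 18.5 CPM in late liver (log2 5.08 ± 0.86, adjusted p = 0.00513). *Slc16a7* (MCT2) fell from 0.941 to 2.95 CPM to 0.392 and 0.284 CPM (log2 -2.34 ± 0.80, adjusted p = 0.0441). *Bsg*, the chaperone of MCT1 and MCT4, rose from 187, 122 and 126 CPM to 478, 314 and 294 CPM in mid liver (log2 1.31 ± 0.28, adjusted p = 0.0143) and 636 and 309 CPM in late liver (log2 1.53 ± 0.31, adjusted p = 0.00785). *Emb* (embigin, a related chaperone) fell in mid liver (log2 -0.92 ± 0.28, adjusted p = 0.0343) and missed the threshold in late liver (log2 -0.81 ± 0.32, adjusted p = 0.0709).

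Of 5 regulators, *Hif1a* rose and *Txnip* fell in late liver, and *Myc*, *Atf4* and *Arrdc4* did not pass. *Txnip*, whose protein draws GLUT1 from the cell surface, stood at 1080, 1160 and 1140 CPM in controls and at 167 and 306 CPM in late liver (log2 -2.21 ± 0.70, adjusted p = 0.0404), and it fell in mid liver too (log2 -2.09 ± 0.62, adjusted p = 0.0361). *Hif1a*, which encodes the oxygen-regulated subunit of HIF-1, was at 71.9, 125 and 116 CPM in controls and 139 and 604 CPM in late liver (log2 1.74 ± 0.40, adjusted p = 0.0122), with the lower value in the TG series. *Myc* was at 116, 117 and 120 CPM in controls, 285, 536 and 338 CPM in mid liver (log2 1.71 ± 0.51, adjusted p = 0.0352) and 251 and 162 CPM in late liver (log2 0.83 ± 0.56, adjusted p = 0.267), and it was highest in early liver 1 at 690 CPM.

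**Figure D5:**
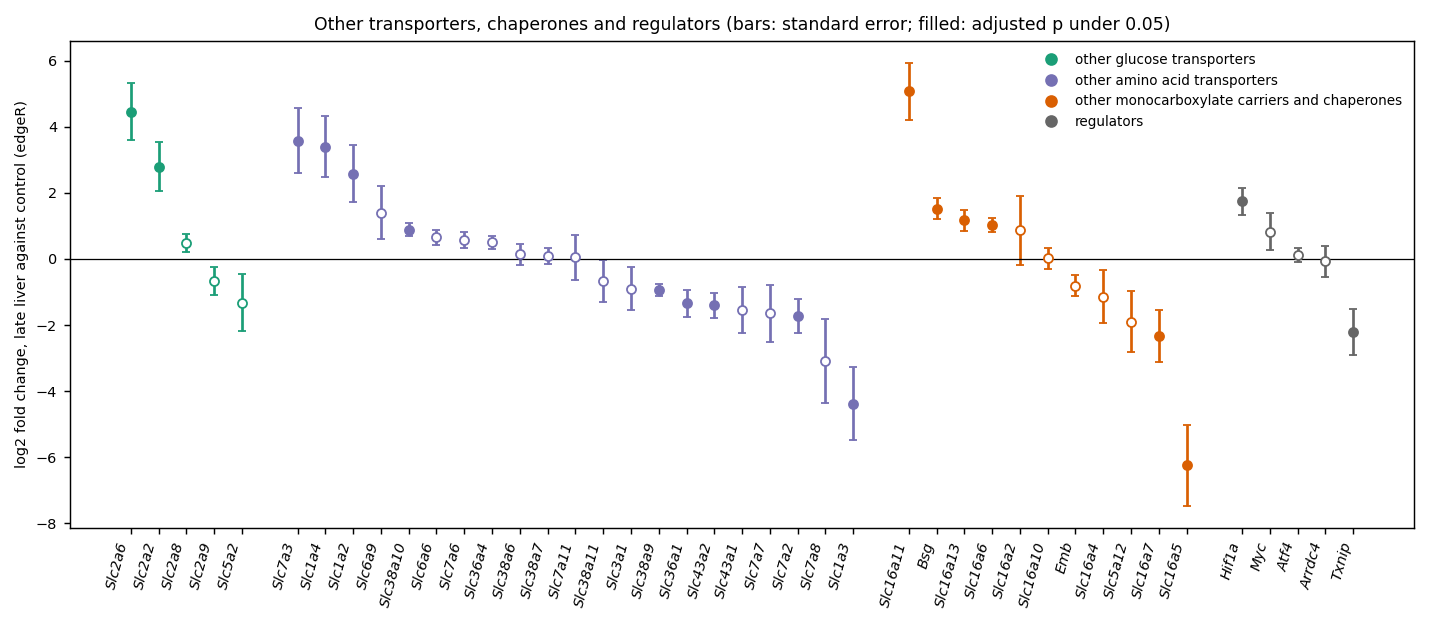
Log2 fold change of late liver against control (edgeR) for the other transporters, chaperones and regulators that were tested, grouped by list and ordered within it, with standard errors as bars and filled points at an adjusted p under 0.05. *Slc16a11* (5.08) and *Slc16a5* (-6.25) mark the ends, and *Bsg* stands at 1.53.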

How the data were processed

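RNA of flow-sorted TCRTg101 was sequenced by the authors in low-input libraries, and transcripts were quantified with kallisto per the labels (mm10 or GRCm38; versions are not given in the sources used here). The deposited values are estimated counts per transcript (expected counts) and TPM, normalized by the authors' software for length and depth.

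Estimated counts were summed over transcripts of a gene with GENCODE vM21 (98.25% of transcripts and at least 98.998% of counts matched), which may not be the authors' annotation, summed over the runs of a library and rounded. Runs of a library differed less (mean chi-square per gene 1.85 to 25.0) than libraries of a group (61.9 to 496.9). Depth was 22918996 to 71358287 counts, so library number (1 to 3 per group) limits precision, and counting error covers only part of the spread. Genes with 10 or more counts in 6 or more of the 14 libraries were kept. The filter in the study's methods can also be read as removing genes with fewer than 10 counts in 6 or more libraries, which would leave 14149 genes here, and the number tested differs from that of the study. TMM factors ran from 0.723 to 1.22. Groups were compared in a single edgeR model (version 4.0.16 in R 4.3.3) with terms for group and series and 6 residual degrees of freedom, by its robust two-sided quasi-likelihood test, and p-values were adjusted by Benjamini-Hochberg over 15465 genes with a threshold of 0.05. The standard error is the log2 fold change over the root of its F. Scripts were tested on simulated data. Correlations used log2 CPM with a prior count of 2. Tables and plots were made with Python 3.11.15, pandas 2.3.3 and matplotlib 3.10.9.

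The members, the other lists, the markers and the motifs were chosen with earlier results of these data known. All members are named, and from the other lists up to 3 genes with the largest change among those called in late liver, with *Bsg*, *Emb*, *Txnip* and *Myc* always. The study's methods mention sequencing batches, and the series were read from library names as a stand-in for them. Alternatives were DESeq2 1.42.0, RLE scaling, no series term, no count filter, first runs, other sets of libraries and each library left out. Fits without the early liver libraries, of the XC series alone and with the second reading of the filter were added after the data were seen.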

Additional observations from a re-analysis of the deposited data

Results flagged for a closer look

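No group had 4 libraries, so no search for outlying libraries was made. Effects of opposite direction in liver and spleen of the same stage, each relative to the control mean, were not tested as differences of effects. They appeared for 3 genes in which all libraries of a group lay on the same side. By group means alone *Slc2a1*, *Slc3a2* and *Slc16a3* did so too at the early stage, with the libraries of a group on both sides. *Slc7a1* was above the control mean in both early liver libraries (mean log2 ratio 0.87) and below it in both early spleen libraries (-0.17). *Slc38a2* was above in early liver (0.23) and below in early spleen (-0.24), but in the model with the series term both were below control (-0.14 and -0.59), so this opposition depends on the series. *Slc3a2* was above in all mid liver libraries (0.47) and below in the single mid spleen library (-0.18). In the oligo-dT library, which entered no comparison, *Slc7a1* stood at 58.9 CPM (without TMM) against 52.0 to 57.3 CPM in the controls, and no other gene of the 10 exceeded the highest control. Below the lowest control were *Slc2a1* (38.1 against 57.8 CPM), *Slc3a2* (157 against 202), *Slc1a5* (194 against 242) and *Slc38a1* (159 against 163).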

How the results depend on the processing

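Counts of called genes depended on the library set, and the cause was not tested except that leaving out libraries leaves fewer samples. For early liver against control, 0 genes became 409 with DESeq2, 4 with the day 0 controls only and 1295 without the count filter, and 0 to 1915 with each library left out (1915 without early liver 2). Of the 10 transporters, 1 was then called by DESeq2, 3 without the filter and 0 to 6 with a library left out. For mid liver, 4525 genes became 0 with the XC series only and 1764 without the series term, and 0 to 3623 with each library left out (0 without control 2, 3 without mid liver 1, 5 without control 1, 33 without mid liver 3). The transporters called went from 8 to 0 and 5, and to 0 to 6. For late liver, 5291 genes became 6 with the XC series only and 2936 without the series term, and 0 to 4362 with each library left out (0 without late liver 2, 674 without late liver 1, 1307 without control 1). The transporters called went from 7 to 0 and 4, and to 0 to 7. For early spleen 14 genes were called by DESeq2, 643 without the filter and 0 to 167 with each library left out (167 without early spleen 1). For mid spleen 27 were called from the 2 groups alone, 12 by DESeq2, 631 without the filter, 0 from first runs or without the series term, and 0 to 1 with each control left out. For undivided cells 223 were called without the filter. For late against mid liver 19 were called from the 2 groups alone, 53 by DESeq2 and 325 without the filter. For early liver against early spleen 61 were called by DESeq2 and 984 without the filter, 4 transporters among the latter, and 0 to 961 genes and 0 to 6 transporters with each library left out (961 and 6 without early liver 2).

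No transporter changed direction in mid or late liver under any setting. In early liver *Slc38a2* turned to 0.082 with the 2 groups alone, 0.066 with the XC series only and 0.233 without the series term, and ranged from -0.317 to 0.073 with each library left out. *Slc16a3* ranged from -0.795 to 1.277 there. Without both early liver libraries, 9 transporters were called in mid and 10 in late liver. Of all 15465 genes tested, 5561 and 6173 were called in these fits, against 4525 and 5291 in the main fit. These settings were chosen after seeing the data. With the other reading of the count filter (also chosen after seeing the data), 4541 genes were called in mid and 5265 in late liver, with 8 and 7 transporters. The 20 log2 ratios of mid or late liver means to control means kept their signs on other scales, but 12 moved by more than the replicate spread on deposited TPM and 11 without TMM factors. In late liver *Slc2a1* went from 1.38 to 0.85 on TPM and 1.03 without TMM, *Slc7a5* from 2.00 to 1.42 and 1.71, *Slc1a5* from 0.80 to 0.37 and 0.47, *Slc2a3* from 0.79 to 0.34 and 0.47, *Slc3a2* from 0.61 to 0.04 and 0.24, and *Slc16a1* from 0.51 to 0.16 and 0.22. No paired analysis was possible because the replicate numbers were given in accession order and the labels pair no libraries across groups. Counting error weighs most on *Slc16a3* outside mid and late liver (35 to 223 counts), and 1 to 3 libraries a group limit the precision of all.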
